A study of Homo sapiens with 2 samples.

Results

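The transcripts of 10 apolipoprotein genes (APOA1, APOA2, APOA4, APOB, APOC1, APOC2, APOC3, APOE, APOH and APOM) were read out in PLC cells, a human liver cancer line. The genes were chosen by name, among 26228 names found in both deposited tables, and all 10 were found in both. The study compared PLC cells carrying an empty pCDH vector (EV, genotype WT in the labels) with PLC cells stably overexpressing human PRSS35, a secreted serine protease, with 1 sequencing library per condition. Both lines were made by lentiviral infection and puromycin selection, so each is a selected population. The sources used here state no further treatment of the sequenced cells. In the PRSS35 line the vector drives the transgene. The values are FPKM, fragments scaled to the length of the transcript and to sequencing depth, along with the interval that the authors' Cufflinks run put around each. It covers error within a library only, and as each condition is a single library, differences cannot be set against a spread between cultures and are given without p-values.

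Apolipoproteins are the protein components of plasma lipoproteins, and the liver is their main source. APOB forms the scaffold of very low density and low density lipoproteins, APOA1 and APOA2 are the main proteins of high density lipoprotein, and the smaller exchangeable apolipoproteins APOC1, APOC2, APOC3 and APOE move between particles and govern lipolysis and receptor uptake. Many of these genes are neighbours in the genome, with APOA1, APOC3 and APOA4 on chromosome 11 and APOE, APOC1 and APOC2 on chromosome 19.

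The PRSS35 transcript itself went from 0.643 FPKM (interval 0.445 to 0.841) in EV to 1836 FPKM (interval 1759 to 1912) in PRSS35 cells, as the labels state. From the interval widths, the depth was estimated at 31458232 fragments for EV and 31541241 for PRSS35. Of 15 hepatocyte marker genes, 13 had a mean FPKM of at least 1, and the AMBP transcript lay at 2052 and 2032 FPKM, whereas ALB, the gene for albumin, was at only 4.05 and 5.21 and HP was listed at 0 in both. Of 13 markers of other cell types 3 reached that level, namely CD68 (297.3 and 277.9 FPKM), LYZ (94.0 and 103.7) and PDGFRB (1.02 and 1.27). The FPKM of these 13 summed to 393.1 in EV and 383.9 in PRSS35, and their part in the results was not tested. The defining leukocyte gene PTPRC and the enterocyte genes FABP2 and APOBEC1 were listed at 0 in both libraries.

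The promoters of 4 members are shown. The first 3 were chosen as they belong to neighbours on chromosome 19 whose transcript levels differed by up to 434.3 times in EV. The 4th was chosen as its gene has a value of 0 in 1 library. Whether the start of each window matches the start of the measured locus was not tested. Sequences are from RefSeq on GRCh38.p14, a later build than the hg19 of the values, and run from 250 bases before to 50 bases after the start of transcription in the direction of the gene. The windows are chr19:44905546-44905845 for APOE, chr19:44914422-44914721 for APOC1, chr19:44945801-44946100 for APOC2 and chr6:31655644-31655943 for APOM, all on the plus strand. Capitals mark 4 motifs searched on both strands, AGGTCA and GGGTCA, which nuclear receptors can bind, GTTAAT, a core of the HNF1 element, and TATAAA, the TATA box.
APOE: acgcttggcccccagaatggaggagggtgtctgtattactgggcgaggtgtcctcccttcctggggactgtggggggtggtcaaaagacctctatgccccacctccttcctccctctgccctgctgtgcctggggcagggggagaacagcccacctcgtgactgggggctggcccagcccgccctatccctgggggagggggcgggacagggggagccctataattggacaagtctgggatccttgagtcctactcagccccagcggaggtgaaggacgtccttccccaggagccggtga
APOC1: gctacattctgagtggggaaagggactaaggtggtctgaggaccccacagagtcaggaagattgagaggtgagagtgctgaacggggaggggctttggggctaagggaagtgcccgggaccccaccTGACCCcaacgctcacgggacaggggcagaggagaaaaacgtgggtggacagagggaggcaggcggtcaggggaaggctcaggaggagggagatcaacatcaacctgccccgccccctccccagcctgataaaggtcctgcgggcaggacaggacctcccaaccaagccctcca
APOC2: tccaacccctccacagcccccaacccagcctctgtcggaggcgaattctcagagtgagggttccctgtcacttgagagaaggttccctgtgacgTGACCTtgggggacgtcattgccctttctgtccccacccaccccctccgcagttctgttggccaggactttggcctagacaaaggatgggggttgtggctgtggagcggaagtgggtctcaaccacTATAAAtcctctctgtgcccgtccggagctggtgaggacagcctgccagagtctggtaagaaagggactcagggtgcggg
APOM: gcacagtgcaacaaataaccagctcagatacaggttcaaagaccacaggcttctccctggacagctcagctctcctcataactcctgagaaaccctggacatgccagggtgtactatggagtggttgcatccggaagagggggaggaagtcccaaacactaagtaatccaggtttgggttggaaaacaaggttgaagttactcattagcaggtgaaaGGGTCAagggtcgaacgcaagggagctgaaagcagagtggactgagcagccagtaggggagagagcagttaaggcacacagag

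None of the 4 motifs occurred in the printed APOE window. The APOC1 window held GGGTCA on the opposite strand, the APOC2 window held AGGTCA on the opposite strand and a TATA box starting 30 bases before the start, and the APOM window held GGGTCA starting 33 bases before the start. No matches overlapped each other. Of 35116 promoter windows of the same length, 13.8% held AGGTCA, 14.1% GGGTCA, 6.88% GTTAAT and 11.5% TATAAA. Windows were found for 7 of the 10 genes, and APOA1, APOB and APOC3 were not among them. Of the remaining windows not printed, APOA4 held GGGTCA, APOH held GTTAAT at 2 places, and APOA2 held none of the motifs. APOE had further windows that start at 44905771 and 44906151 of chromosome 19, and these held none either. A match is a stretch of letters and was not tested as a binding site.

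In both libraries the APOE transcript was the most abundant of the family and the APOA4 transcript the lowest. In EV cells the order from high to low FPKM was APOE, APOC1, APOA1, APOM, APOA2, APOC3, APOH, APOB, APOC2 and APOA4, and in PRSS35 cells the order was the same once APOM, listed at 0, is left out. For all 9 neighbouring pairs of this order in EV and all 8 in PRSS35, the intervals of the neighbours did not overlap. APOE, APOC1 and APOA1 together made up 89.5% of the summed FPKM of the members other than APOM in EV and 90.1% in PRSS35. That sum was 3289 FPKM in EV and 3175 in PRSS35, or 0.384% and 0.382% of the FPKM over named loci. A level per length of a transcript says nothing of the amount of protein secreted.

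**Figure D1:**
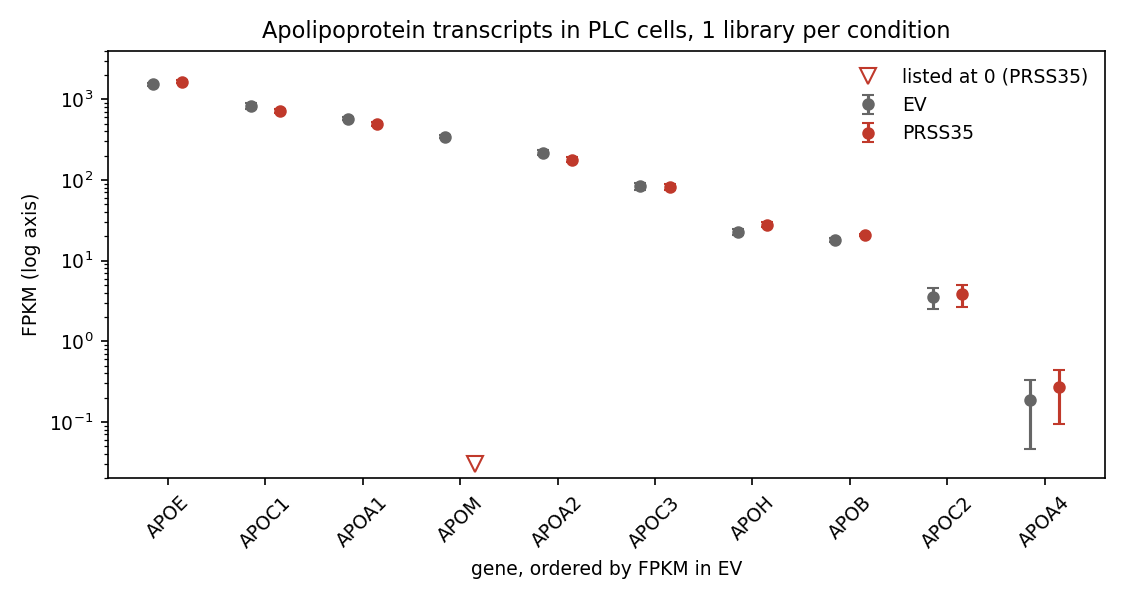
FPKM of the 10 apolipoprotein genes on a log axis in the EV (grey) and PRSS35 (red) libraries, ordered by the EV value, with bars for the Cufflinks interval. Levels run from 1538 FPKM for APOE to 0.188 for APOA4 in EV, the paired points lie close together, and the open triangle marks APOM, listed at 0 in PRSS35.

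None of the 8 expressed members above 0 in both libraries changed by 2-fold or more, and neither did APOA4, which lay under the level of 1 FPKM. APOM, listed at 0 in PRSS35, was left out of this call. Of the 10 genes, 9 had a mean FPKM of at least 1 and 8 of these were above 0 in both libraries, and 0 of the 8 were higher and 0 were lower by 2-fold. Among all 10903 names at that level and above 0 in both, 1.84% were higher and 1.5% were lower by 2-fold, so that none among 8 genes is close to the background. The change of a gene is the log2 ratio of FPKM + 1 in PRSS35 to FPKM + 1 in EV, where the added 1 damps the changes of low genes. Over the 9 members above 0 in both libraries they ran from -0.29 to 0.28 with a median of 0.08, and 5 were positive and 4 negative. Over the 8 expressed members alone, without APOA4, the median was 0.03. The median over all expressed names was 0.06, and 60.4% of these names had a positive change.

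The intervals of the libraries lay apart for 4 members, with APOH and APOB higher and APOA1 and APOA2 lower in PRSS35 cells. Intervals lay apart and higher for 24.8% of the expressed names and apart and lower for 14.8%, so 2 and 2 among 8 expressed members are near the background. With upper quartile scaling APOC1 joined the members apart and lower, making 2 higher and 3 lower, and the shares of all names were 18.1% higher and 19.9% lower. These directions hold for FPKM as deposited. With each library scaled to the same summed FPKM, which moved the median change of all names from 0.06 to 0.68, APOA1 and APOA2 turned to 0.49 and 0.42 and stayed below that median, while APOB and APOH, at 0.86 and 0.97, stayed above it. With that scaling 87.7% of names had intervals apart and higher and 1.48% apart and lower, and 1164 names were higher and 71 lower by 2-fold, where 201 were higher and 163 lower with FPKM as deposited.

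**Figure D2:**
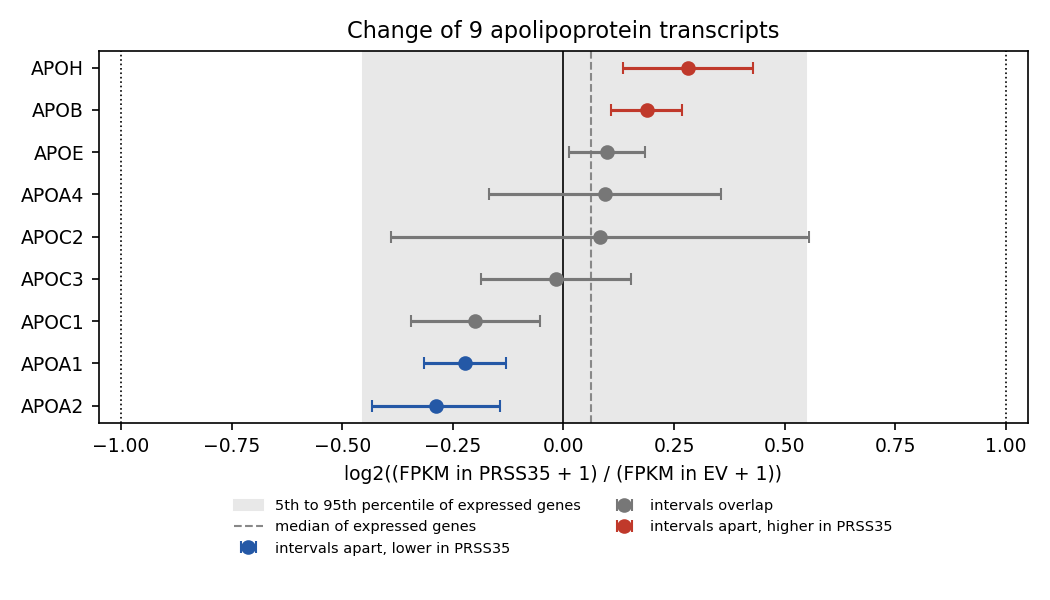
Log2 change of the 9 apolipoprotein genes above 0 in both libraries, with bars that combine the relative interval widths of both libraries. All 9 points lie inside the band from the 5th to the 95th percentile of expressed genes (-0.45 to 0.55) and between the dotted 2-fold lines. APOA1 and APOA2 are lower and APOH and APOB higher with intervals apart for FPKM as deposited. When the libraries are scaled to equal FPKM summed over all loci, unnamed ones included, APOA1 and APOA2 turn positive. They then stay below the median of all expressed genes, which that scaling moves to 0.68.

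Of the proteins of high density lipoprotein, APOA1 activates lecithin-cholesterol acyltransferase and accepts cholesterol from cells. The gene, on the minus strand, spans 116706469 to 116708338 of chromosome 11 (hg19, as for all loci given here) and has 4 exons. The level of APOA1 was 576.2 FPKM (interval 550.0 to 602.4) in EV and 493.6 (interval 470.9 to 516.4) in PRSS35, a ratio of 0.857, with a log2 change of -0.22 (-0.32 to -0.13). The intervals do not overlap. The antisense gene APOA1-AS overlaps the APOA1 locus over 1506 bases and was listed at 0 in both libraries, and since the library kit as named does not mark strand, reads of the pair could not be told apart.

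APOA2, which forms the second most abundant protein of high density lipoprotein, lies on the minus strand of chromosome 1 from 161192083 to 161193418. Its FPKM was 218.1 (interval 203.1 to 233.0) in EV and 178.5 (interval 165.3 to 191.6) in PRSS35, a log2 change of -0.29 (-0.43 to -0.14). It was the member with the most negative change, and its intervals did not overlap. The APOA1 level was 2.64 times that of APOA2 in EV and 2.77 times in PRSS35, so the ratio of the pair changed little. Both were assembled from the reads in either library.

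APOA4, made mostly by the intestine in humans and carried on chylomicrons and high density lipoprotein, was barely detected. Its gene lies on the minus strand of chromosome 11 from 116691418 to 116694011. The FPKM was 0.188 (interval 0.0459 to 0.330) in EV and 0.269 (interval 0.0952 to 0.442) in PRSS35, and the bounds correspond to about 7 and 9.6 fragments. The intervals overlap over most of their width, so a difference was not detectable at this depth.

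APOB, whose large protein stays with its particle from the endoplasmic reticulum until uptake by the LDL receptor, lies on the minus strand of chromosome 2 from 21224301 to 21266945 with 29 exons. The APOB transcript stood at an FPKM of 18.0 (interval 17.05 to 19.02) in EV and 20.7 (interval 20.2 to 21.1) in PRSS35. The log2 change was 0.19 (0.11 to 0.27), with the PRSS35 interval above that of EV. The locus was assembled from the reads in EV and kept its annotation in PRSS35, where the relative width of the interval was 2.14% on either side against 5.44% in EV. Inside APOB, an unnamed locus without exon bases of the reference transcript had an FPKM of 6.87 (interval 4.66 to 9.07) over 456 bases in EV and 4.80 (interval 3.72 to 5.88) over 815 bases in PRSS35. The part of assembly in the APOB difference was not tested.

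Among the exchangeable apolipoproteins, APOE, the ligand of the LDL receptor family, lies on the plus strand of chromosome 19 from 45409006 to 45412652. The FPKM of APOE was 1538 (interval 1473 to 1603) in EV and 1647 (interval 1577 to 1716) in PRSS35, and it ranked 105 and 95 among all names. The separate intervals overlap, although the combined interval of the log2 change of 0.10 ran from 0.01 to 0.18. The change is close to the median of all names, 0.06.

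APOC1, an inhibitor of cholesteryl ester transfer and of receptor uptake, was second in level. Its value is that of a locus joined with the pseudogene APOC1P1, on the plus strand of chromosome 19 from 45417921 to 45434643, and fragments of the near-identical copy could not be separated. The FPKM was 828.4 (interval 756.1 to 900.7) in EV and 721.6 (interval 684.2 to 759.0) in PRSS35, a log2 change of -0.20 (-0.35 to -0.05). The intervals overlap at their ends. APOE exceeded APOC1 1.86 times in EV and 2.28 times in PRSS35.

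APOC2, the activator that lipoprotein lipase needs, was low. Its value is again that of a joined locus, with APOC4 and the read-through gene APOC4-APOC2, on chromosome 19 from 45445495 to 45452822. The FPKM was 3.54 (interval 2.51 to 4.58) in EV and 3.81 (interval 2.68 to 4.94) in PRSS35, with a log2 change of 0.08 (-0.39 to 0.55), the widest interval of the 9 on this scale. Relative to FPKM, the interval of APOC2 reached 29.2% to either side in EV, against 75.6% for APOA4. The level of the APOE transcript was 434.3 times that of APOC2 in EV and 432.0 times in PRSS35, although the genes are neighbours.

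APOC3, an inhibitor of lipoprotein lipase that also slows hepatic uptake of remnants, lies on the plus strand of chromosome 11 from 116700624 to 116703787, between APOA4 and APOA1. The FPKM was 83.1 (interval 75.8 to 90.4) in EV and 82.1 (interval 75.7 to 88.6) in PRSS35, the smallest change of the members, with a log2 change of -0.02 (-0.19 to 0.15). The locus was assembled in EV and annotated in PRSS35. APOC3 exceeded its neighbour APOA4 442.0 times in EV and 305.8 times in PRSS35, ratios that rest on the few fragments of APOA4.

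**Figure D3:**
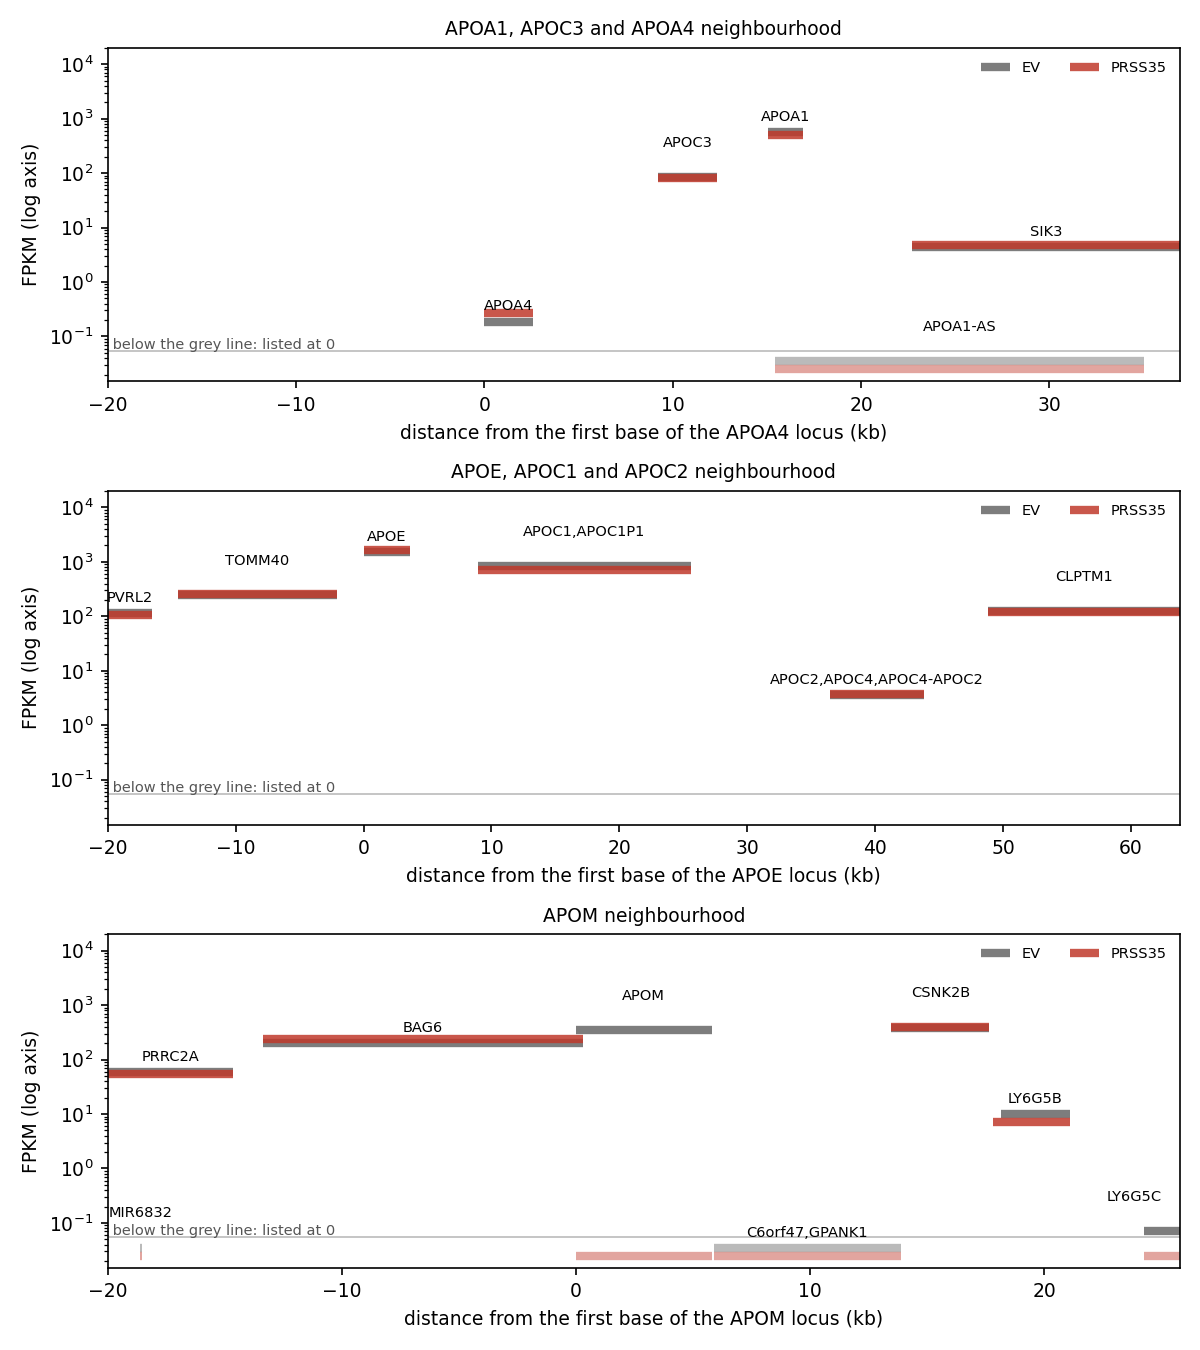
FPKM of the named loci within 20 kb of 7 apolipoprotein genes, drawn as bars over their length, by distance from the first base of APOA4, APOE or APOM. Grey is EV and red is PRSS35, and bars below the grey line are listed at 0. Neighbouring genes differ widely in level, and APOM, at 345.7 FPKM in EV and listed at 0 in PRSS35, is the member whose bars lie far apart. BAG6, PRRC2A and LY6G5B had intervals apart, and LY6G5C, at 0.0707 FPKM in EV, is also listed at 0 in PRSS35.

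APOH, or beta-2-glycoprotein I, a plasma protein that binds anionic phospholipid, lies on the minus strand of chromosome 17 from 64208147 to 64225556. Its FPKM was 22.7 (interval 20.9 to 24.4) in EV and 27.8 (interval 25.8 to 29.7) in PRSS35. The log2 change of 0.28 (0.14 to 0.43) was the highest of the members, and the intervals did not overlap. The locus kept its annotation in both libraries, as did only APOA4 among the other members.

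APOM, a lipocalin that carries sphingosine-1-phosphate on high density lipoprotein, was the 4th most abundant member in EV and had no value above 0 in PRSS35. Its gene lies on the plus strand of chromosome 6 from 31620187 to 31625987. The FPKM was 345.7 (interval 328.3 to 363.1) in EV and was listed at 0, with both bounds at 0, in PRSS35. Each table holds 7 rows of this name, and the 6 rows on alternate haplotypes were listed at 0 in both. The locus has the same coordinates and an assembled identifier in either library. No fold is given against a value listed at 0, as a 0 of this kind can be a failed estimate of the assembled locus, which was not tested.

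Several genes around APOM had values in both libraries. BAG6, a chaperone of tail-anchored proteins whose locus overlaps that of APOM over 291 bases, had an FPKM of 203.4 in EV and 236.8 in PRSS35, with intervals apart. CSNK2B, the regulatory subunit of casein kinase 2, had 386.2 and 391.9 with overlapping intervals. PRRC2A, at 60.1 and 54.1, and LY6G5B, at 9.83 and 7.14, were lower in PRSS35 with intervals apart. The joined locus of C6orf47 and GPANK1, next to APOM, and MIR6832 were listed at 0 in both libraries, and LY6G5C had 0.0707 FPKM in EV and was listed at 0 in PRSS35. No unnamed locus was assembled within 20 kb of APOM in either library. Of 11118 expressed names, 1.02% were listed at 0 in PRSS35 only. Of 1527 names with at least 100 FPKM in EV, 17 were listed at 0 in PRSS35, and APOM is itself among these. The others include EDF1 at 724.7 FPKM, and most of them are small nucleolar RNAs and microRNAs. In the other direction 11 of 1543 names with at least 100 FPKM in PRSS35 were listed at 0 in EV.

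The further genes of lipoprotein metabolism were read out as fixed lists. Of 17 other apolipoproteins 7 were expressed, with a median log2 change of 0.07, and 0 changed by 2-fold. Among the 7, APOC4 carries the value of the joined locus already given for the member APOC2. SAA4 and SAA2 also enter with the same value each, so the count and median hold repeated loci. CLU, or apolipoprotein J, was the most abundant, with 166.9 FPKM (interval 161.3 to 172.4) in EV and 162.4 (interval 156.5 to 168.3) in PRSS35. SAA4 and SAA2, serum amyloid proteins of high density lipoprotein, share a joined locus that was lower in PRSS35, at 43.5 (interval 39.2 to 47.7) and 33.6 FPKM (interval 29.9 to 37.2). Of this list 4 genes were listed at 0 in both libraries, including LPA.

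Of 16 genes for assembly and secretion of APOB particles, 14 were expressed and 13 of these were above 0 in both libraries. The median log2 change of the 13 was 0.23, against 0.06 for all names, and 9 had intervals apart and higher, 1 apart and lower. Among all expressed names 24.8% were apart and higher and 14.8% apart and lower. P4HB, the subunit of the microsomal triglyceride transfer complex that is also protein disulfide isomerase, had 435.8 FPKM in EV and 514.9 in PRSS35. SURF4, a cargo receptor for export from the endoplasmic reticulum, had 233.3 and 302.4, and TFG, a factor at the exit sites, 33.4 and 37.7. All 3 had intervals apart. TM6SF2, which takes part in lipidation of APOB particles, was the only gene of the list past 2-fold, from 1.40 FPKM (interval 1.01 to 1.78) to 7.69 (interval 5.10 to 10.3), at a locus annotated in EV and assembled in PRSS35. DGAT1, a triglyceride synthesis enzyme, was listed at 0 in EV while its PRSS35 value was 21.9 FPKM. Its locus was assembled in both libraries, and such a 0 can be a failed estimate, which was not tested.

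Of 13 genes that remodel lipoproteins in plasma, 6 were expressed and 5 were above 0 in both libraries, with a median log2 change of 0.23. LIPC, hepatic lipase, had 28.3 FPKM (interval 26.2 to 30.4) in EV and 39.0 (interval 36.6 to 41.4) in PRSS35, and PON3, a lactonase on high density lipoprotein, had 21.3 and 31.8 with intervals apart. ANGPTL4, an inhibitor of lipoprotein lipase, was listed at 0 in EV, at an assembled locus, and at 37.3 FPKM in PRSS35. This 0 can also be a failed estimate, which was not tested. In the list 2 genes were higher and 2 lower with intervals apart, where 24.8% and 14.8% of all expressed names were, and none changed by 2-fold.

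Among 19 receptors, transporters and their partners 12 were expressed, with a median log2 change of 0.21. Of these 9 were higher with intervals apart and 0 were lower, where 24.8% and 14.8% of all expressed names were. APOA1BP, named for its binding to APOA1, had 463.9 FPKM in EV and 559.6 in PRSS35, SDC1, a heparan sulfate proteoglycan that takes up remnants, had 102.2 and 117.7, and LSR, a remnant receptor, had 163.1 and 161.5. LRPAP1, the chaperone of LDL receptor family proteins, was the only gene past 2-fold on the scale with the added 1 FPKM. It went from 21.2 FPKM (interval 20.2 to 22.3) to 92.8 (interval 86.5 to 99.0). This locus was annotated in EV and assembled in PRSS35, and the part of assembly in its difference was not tested. LRP8, a receptor in the list, had 1.64 FPKM (interval 1.45 to 1.83) in EV and 3.99 (interval 3.48 to 4.50) in PRSS35. With the added 1 FPKM its log2 change was 0.92, just under the limit.

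Of 17 transcription regulators of hepatic lipid genes 15 were expressed, with a median log2 change of 0.06 and no 2-fold change. CEBPA and CEBPB, liver-enriched leucine zipper factors, were at 95.7 and 93.8 FPKM in EV and at 107.3 and 108.0 in PRSS35, with intervals apart. NR1H2, the liver X receptor beta, was at 74.3 and 72.5 with overlapping intervals. In this list 4 genes were higher and 3 lower with intervals apart. The hepatocyte markers had a median log2 change of -0.01, with 5 higher and 1 lower. The most abundant of them were SERPINA1 (2528 FPKM in EV and 4239 in PRSS35), KRT18 (2781 and 2315) and KRT8 (2457 and 2344). The markers of other cell types had a median of 0.14 over 3 genes. Intervals apart are read against 24.8% higher and 14.8% lower among all expressed names, and the lists share the same pair of libraries.

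**Figure D4:**
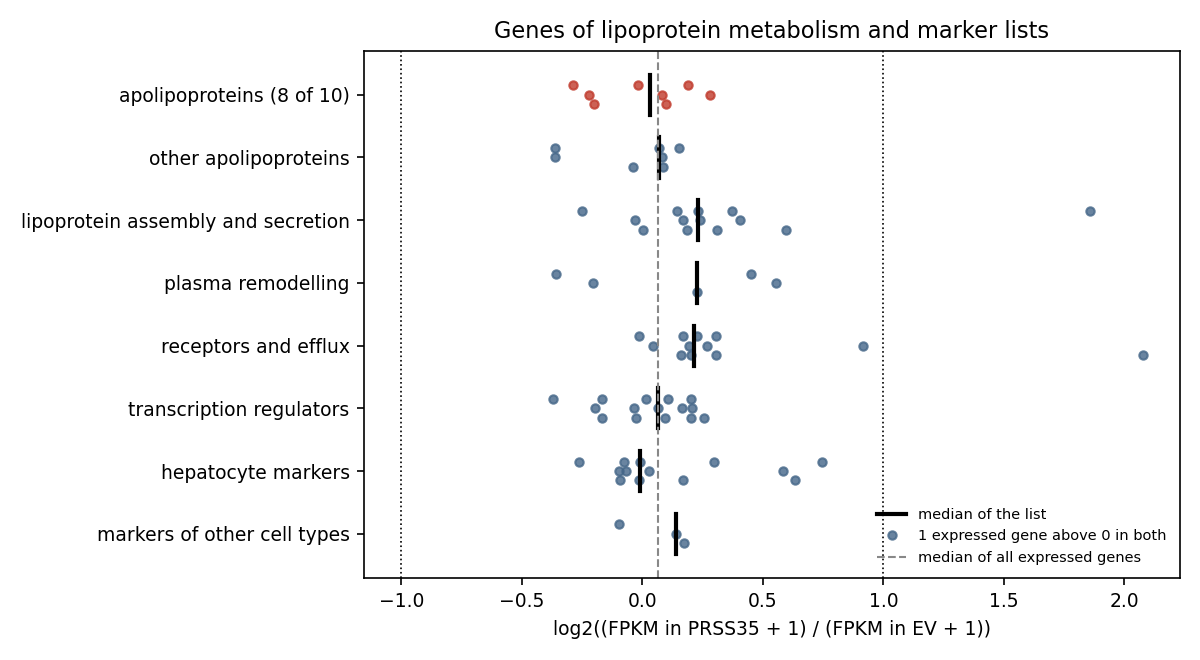
Log2 change of each expressed gene above 0 in both libraries, by list, with the apolipoproteins in red and a black line at the median of each list. Dotted lines mark 2-fold, and the dashed line marks the median of all expressed genes, 0.06. The 8 apolipoproteins lie on both sides of 0, and TM6SF2 and LRPAP1 are the points beyond the 2-fold line.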

How the data were processed

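The authors made 1 library from total RNA of each PLC line and sequenced both on a HiSeq2500. They aligned reads to hg19 with TopHat2 (2.1.0) and estimated transcripts with Cufflinks. The submitters' processing notes name Cuffdiff 2.2.1. The annotation release is not given in the sources used here. The deposited values are FPKM per locus with the bounds of their interval, and no counts of reads were used.

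Loci on alternate haplotypes were left out, each name in a joined locus was given the value of that locus, and FPKM of loci with the same name was summed, with interval widths added in quadrature. A name was called expressed at a mean FPKM of 1 or more. Log2 changes used a pseudocount of 1 FPKM, and 2-fold or more was a call. Calls and medians were restricted to names above 0 in both libraries, since no fold is given against a value listed at 0. Members and lists were chosen with earlier results of these data known. Genes named beside the members were PRSS35, the 3 most abundant genes of each pathway list and those that changed 2-fold or were listed at 0 in 1 library. The genes around APOM, the other markers in the description of the cells, LPA, LRP8 and EDF1 were named after their values were seen. With 2 libraries no gene was named for likeness of pattern. Depth was estimated from loci whose bounds imply a whole number of fragments, within 0.01. Strand and exons were taken from GENCODE on GRCh37, the assembly of hg19. On simulated data with 200 of 7151 names changed 4-fold, 200 were called, as was 1 unchanged name. The simulation used names of at least 5 FPKM in EV and drew its error from the interval widths alone. Recovery of 4-fold changes by a 2-fold call was thus near certain. It does not cover low genes, changes near 2-fold or spread between cultures. Alternatives covered the pseudocount, scaling, the treatment of joined and repeated names, the fold threshold and the filter on low values. The software was Python 3.11.15 with scipy 1.17.1, numpy 2.4.6, matplotlib 3.10.9 and pandas 2.3.3.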

Additional observations from a re-analysis of the deposited data

How the results depend on the processing

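Under each alternative run, 0 of the members above 0 in both libraries changed by 2-fold in either direction, also at a 1.5-fold threshold. With the other pseudocounts (0.1 and 5 FPKM), centring, upper quartile scaling, the highest row per name and single-name loci, the log2 change of every member above 0 in both libraries moved by less than its interval. For APOA4 this held only narrowly. Its change went from 0.09 (-0.17 to 0.36) to 0.36 with a pseudocount of 0.1 FPKM. Upper quartile scaling changed 1 call, as the intervals of APOC1 then lay apart, with 2 members higher and 3 lower. Loci with a single name gave no value for APOC1 and APOC2. With both libraries scaled to the same summed FPKM, 7 members had intervals apart and higher and 0 apart and lower, where 87.7% and 1.48% of all names did, the median log2 change of the members was 0.64, and APOA1 and APOA2 turned positive, at 0.49 and 0.42. The FPKM over all loci, which this scaling makes equal, summed to 2469030 in EV and 1508529 in PRSS35. The estimated depths were 31458232 and 31541241 fragments. The sum over all loci includes the unnamed loci. Of the FPKM over named loci alone, the members other than APOM made up 0.384% in EV and 0.382% in PRSS35. Their own sums were 3289 FPKM in EV and 3175 in PRSS35. The median of all expressed names was 0.68 with this scaling. The list medians were then 0.64 for the other apolipoproteins, 0.86 for assembly and secretion, 0.84 for plasma remodelling, 0.86 for receptors and efflux, 0.65 for transcription regulators, 0.70 for hepatocyte markers and 0.61 for markers of other cell types. Among all names the number higher and lower by 2-fold was 116 and 83 with a pseudocount of 5 FPKM, 479 and 362 at a 1.5-fold threshold, and 116 and 113 with single-name loci. What causes these shifts was not tested. No paired analysis was possible because EV and PRSS35 are single libraries, and for the same reason no replicate could be left out. With about 7 and 9.6 fragments behind APOA4, depth limits what can be said of it.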
